A study of Mus musculus with 67 samples.

Results

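Heat shock chaperones were described here by 10 genes, Hspa1a, Hspa1b, Hspa8, Hsp90aa1, Hsp90ab1, Hsph1, Dnajb1, Hspe1, Hspd1 and Hsf1, chosen by their symbols and not by any measured value. All 10 were rows of the 26414 rows of the expression table. Chaperones bind unfolded proteins and let them fold. The HSP70 proteins (Hspa1a, Hspa1b and Hspa8) work with J-domain partners such as Dnajb1, which start their ATP cycle, and with exchange factors such as Hsph1 (HSP110), which release the nucleotide. HSP90 (Hsp90aa1 and Hsp90ab1) matures kinases and receptors, while Hspd1 and Hspe1 form the chaperonin of mitochondria. Hsf1 encodes the transcription factor that switches on heat-inducible chaperones, and it is a maternal product of the oocyte. Inducible HSP70 is known as an early product of the mouse embryonic genome, which is switched on in earnest at the 2-cell stage.

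Embryos of C57BL/6 mice (females of 6 weeks, males of 10 weeks) stayed in the dark as control, or, once they had 2 cells, spent 6 h under a full-spectrum bulb of 5000 lx before they went back to the dark, as the study's methods describe it. Cells picked from embryos were sequenced by SMART-seq2. Control libraries numbered 7 of 2-cell, 6 of 4-cell and 4 of 8-cell embryos, 13 of morulae and 3 of blastocysts, and light libraries 6, 8, 8, 6 and 6. No allele or transgene was involved, and the labels name neither litter nor mouse, so that p-values measure the spread between these libraries, which may come from few embryos. Y-linked genes reached 10 CPM (the unit defined below) in 3 of 7, 4 of 6, 0 of 4, 0 of 13 and 0 of 3 control libraries, in order of stage, and in 2 of 6, 8 of 8, 3 of 8, 1 of 6 and 6 of 6 light libraries. Such reads come from male embryos. In blastocysts sex and light thus cannot be told apart, and at the other stages the part of sex was not tested.

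Total reads per library lay between 836011 and 8551674, and 54.0% to 89.3% of them fell on 2 ribosomal RNA locus rows. Levels are given as CPM, reads scaled to 1000000 of the 318177 to 2867034 reads outside these rows, so that 1 read was worth 0.349 to 3.14 CPM. Of 67 libraries, 15 had a higher median rank correlation with another stage than with their own, where each stage pooled control and light. Among them were all 6 light morulae, 3 of 4 control and 4 of 8 light 8-cell libraries, and light 2-cell library 12. With its own group alone, each light morula had a median rho of 0.792 to 0.813, above that with any other stage. For light 2-cell library 12 it was 0.832, against 0.794 with 4-cell libraries. The 8-cell libraries named also stood above, except light library 8 (0.783 against 0.787 with 4-cell libraries). Control 4-cell libraries 3, 4 and 6 were nearer to light 4-cell libraries (median rho 0.828, 0.800 and 0.804) than to control ones (0.793, 0.796 and 0.802). The ratio of the 2 ribosomal rows was 2.34 to 4.03 in control 2-cell libraries and 1.58 to 1.77 in light ones. It was likewise 2.01 to 2.34 against 1.52 to 1.71 in 8-cell libraries and 2.34 to 4.14 against 1.49 to 1.67 in morulae. At the 4-cell stage it was 4.55 and 4.35 in control libraries 1 and 2, 1.61 to 1.98 in the other control libraries and 1.43 to 1.63 in light ones. The part of this ratio in the results at these stages was not tested. Markers of cumulus and granulosa cells (5 of 6 in the table) summed to at most 22.0 CPM in any library, and 5 sperm markers to at most 8.65 CPM.

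Promoter sequences were taken from RefSeq (GRCm38.p6), where 6 of the 10 genes had a window of 250 bases before and 50 after the start. Heat shock factors bind inverted repeats of GAA, and the letters GAANNTTCNNGAA or TTCNNGAANNTTC (both strands) were searched as an element of 3 repeats, which 198 of 32851 windows held (0.603%). Windows of 3 genes held it, Hspe1, Hspd1 and Hsph1. The genes Hspe1 and Hspd1 stand head to head and share 112 bases (Hspe1 at chr1:55088132-55091307 on the plus strand, Hspd1 at chr1:55077835-55088243 on the minus strand, GENCODE M21, GRCm38), and the run lay at chr1:55088059-55088076. Its nearer end was 71 bases before the RefSeq start of Hspe1 and, on the other strand, 126 bases before the second RefSeq start of Hspd1, inside the outer bounds that GENCODE gives Hspd1. The window of the first RefSeq start of Hspd1 (chr1:55088194-55088493) held no element of 3 repeats. The run is shown once, on the strand of Hspe1 and in capitals, because it stands in a window of each gene.
Hspe1 and Hspd1, element on the strand of Hspe1: gtccgTTCTAGAACCTTCCGGAAggccc
In Hsph1 (chr5:149614287-149636376, minus strand) the element lay after the start, at chr5:149636288-149636300, and is shown in capitals on the strand of the gene.
Hsph1, element after the start: gcagaTTCTGGAAAGTTCtcctc

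The inducible genes Hspa1a (chr17:34969190-34972156) and Hspa1b (chr17:34956436-34959238), both on the minus strand, held no element of 3 repeats. Each held the shorter GAANNTTC, whose last base lay 96 bases before the start. Either this or TTCNNGAA stood in 15.1% of all windows. The 250 bases before the starts were 98.8% identical (247 of 250), and both are shown because reads of these genes are described side by side. Capitals mark the shorter element within chr17:34972157-34972406 and chr17:34959239-34959488.
Hspa1a, 250 bases before the start: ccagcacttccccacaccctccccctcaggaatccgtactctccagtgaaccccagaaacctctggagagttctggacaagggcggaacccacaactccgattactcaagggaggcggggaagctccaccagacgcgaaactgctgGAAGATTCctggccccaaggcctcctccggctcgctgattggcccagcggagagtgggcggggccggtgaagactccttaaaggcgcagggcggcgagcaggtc
Hspa1b, 250 bases before the start: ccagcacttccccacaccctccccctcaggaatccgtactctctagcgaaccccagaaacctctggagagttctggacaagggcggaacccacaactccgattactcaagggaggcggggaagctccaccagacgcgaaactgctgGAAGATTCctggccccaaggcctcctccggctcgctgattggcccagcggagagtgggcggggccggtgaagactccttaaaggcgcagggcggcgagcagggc
A match names letters only. The transcripts are also close: of all windows of 150 bases, the read length, 38.1% of the Hspa1a transcript were found unchanged in Hspa1b, so that their reads could be split or lost in counting. No promoter was printed for Hspa8, Hsp90aa1, Hsp90ab1 and Hsf1, and the windows of Dnajb1 held neither element.

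**Figure D1:**
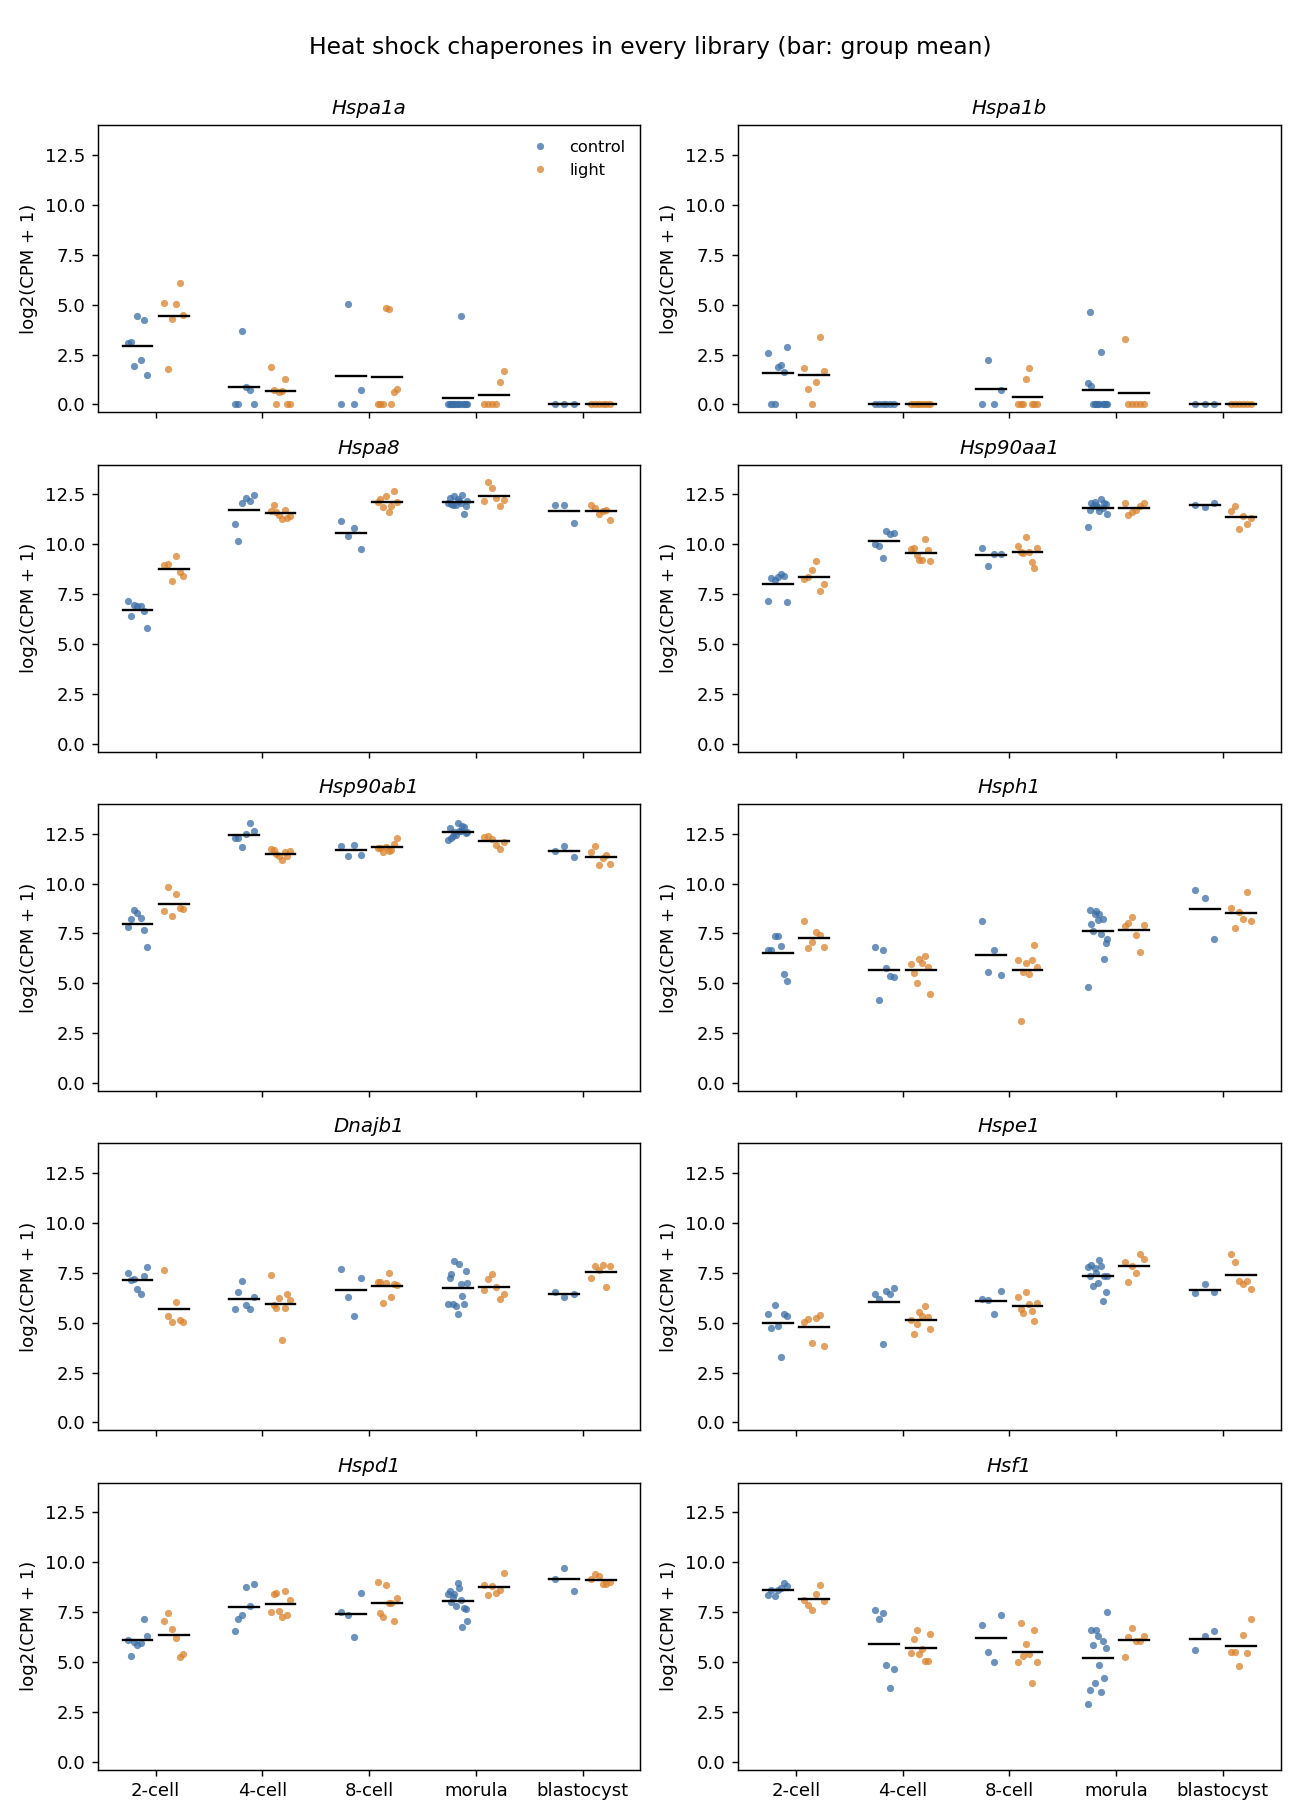
Level of each of the 10 genes in all 67 libraries, as log2(CPM + 1), by stage; blue points are control libraries, orange points light libraries, and black bars group means. Hspa8, Hsp90ab1 and Hsp90aa1 stand higher and Hsf1 lower from the 4-cell stage on, and Hspa8 is higher in every light than in every control library of the 2-cell and 8-cell stages.

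Light was first compared with control at the 2-cell stage, where the exposure took place. A gene was called by limma when its Benjamini-Hochberg adjusted p over all genes tested was under 0.05 and its fold change on the log2(CPM + 1) scale at least 2. Of the 10 genes, 1 rose, Hspa8, and 1 fell, Dnajb1. Over all 18090 genes tested, 6.94% were called higher and 5.02% lower. Over the 10 genes the median log2 fold change was 0.31, and over all genes 0.049.

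Hspa8 (chr9:40800984-40810087) encodes HSC70, the HSP70 of unstressed cells. In control 2-cell libraries its level was 55.3 at the lowest, 118 at the median and 141 at the highest, in CPM. In light libraries it was 289.5, 444 and 677 CPM. No control library reached the lowest light library, a separation that 4.81% of all genes tested showed in either direction. The mean rose 4.27-fold, from 106 ± 28.5 (SD, n = 7) to 452 ± 140 CPM (SD, n = 6), with a log2 fold change of 2.08 ± 0.28 (SE; limma, adjusted p = 1.5e-05). With any 1 library left out the log2 fold change was 1.94 or more, and without light library 12 it was 2.03. Leaving out 1 library does not cover a likeness to 4-cell libraries that several light libraries shared. Median rho with 4-cell libraries was 0.738 to 0.794 in light libraries 9, 10, 12 and 14. It was 0.659 and 0.655 in light libraries 15 and 16, and 0.576 to 0.681 in control. The part of this likeness in the results of the 2-cell stage was not tested. A processed pseudogene of Hspa8, Gm15459, held 2.41% as many reads as Hspa8 over all libraries, and 55.4% of Hspa8 windows of 150 bases occur in other transcripts.

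Dnajb1 (chr8:83608193-83612653), the J-domain partner that is itself heat-inducible, was at 84.4, 144 and 222 CPM (lowest, median, highest) in control. In light libraries it was at 31.9, 37.2 and 197 CPM. The groups overlapped only through light library 10, at 197 CPM, since the other light libraries reached at most 63.7 CPM. Dnajb1 fell by 1.45 on the log2 scale (SE 0.39; limma, adjusted p = 0.012), from a mean of 148 ± 46.3 to 66.6 ± 65.2 CPM. With libraries paired by number the log2 fold change was -1.49 and the call was lost (limma, adjusted p = 0.17). Hspa8 and Dnajb1 thus changed in opposite directions.

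The inducible Hspa1a had reads in all 13 libraries of this stage, 3 to 51 in control and 7 to 64 in light. In CPM, control libraries ran from 1.73 to 20.6 with a median of 7.54, and light libraries from 2.44 to 66.0 with a median of 26.4. The ranges overlapped, since light libraries 12 and 14 lay within the control range. The means were 8.89 ± 7.53 and 28.8 ± 21.3 CPM, 3.24-fold apart, and the log2 fold change of 1.52 ± 0.71 did not pass (limma, adjusted p = 0.16, 0.051 without light library 12). Its 95% interval ran from 0.076 to 2.97. A gene annotated on the opposite strand, Gm20481 (chr17:34969912-34972136), covers 2225 bases of Hspa1a and had 52.9% as many reads over all libraries. SMART-seq2 does not keep strand, so that reads of the pair cannot be told apart. Hspa1b had 0 to 11 reads in control and 0 to 5 in light, with means of 2.73 and 2.68 CPM and a log2 fold change of -0.10 (interval -1.54 to 1.34).

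Hsp90ab1 (chr17:45567775-45573271), the constitutive HSP90, was at 274 ± 99.7 CPM in control and 536 ± 228 in light. Its log2 fold change of 0.97 ± 0.28 passed the adjusted p (0.021, limma) and stood just under the 2-fold bound. It was 1.01 to 1.09, and called, when any of 8 libraries was left out, and 0.80 without light library 12 (adjusted p = 0.073) and 0.78 without control library 9 (adjusted p = 0.054). On the values as deposited the adjusted p was 0.067. The remaining genes were not called. Hsph1 was 1.59-fold higher in light by its mean (104 against 165 CPM, adjusted p = 0.16), Hsp90aa1 1.28-fold (273 against 350.1 CPM, adjusted p = 0.43) and Hspd1 1.29-fold (72.4 against 93.4 CPM, adjusted p = 0.73), all by limma. The heat shock factor Hsf1 (chr15:76477422-76501913) went from 398 to 297 CPM (log2 fold change -0.46, interval -0.95 to 0.017), and Hspe1 from 35.0 to 28.7 CPM.

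Beside these values, 5 oocyte and maternal markers summed to 1739 to 4030 CPM in control and 458 to 1622 CPM in light 2-cell libraries, with no overlap. The largest was Bmp15, at means of 1932 and 435 CPM. Oosp1 (465 and 210 CPM) and Zp2 (145 and 82.4 CPM) were lower in light by mean as well. Gdf9 was at 202 and 181 CPM, and Zp3 was higher in light (43.0 and 55.2 CPM). The part of these markers in the result was not tested. CPM is a share of the reads, so that a gain of some transcripts and a loss of others cannot be told apart.

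**Figure D2:**
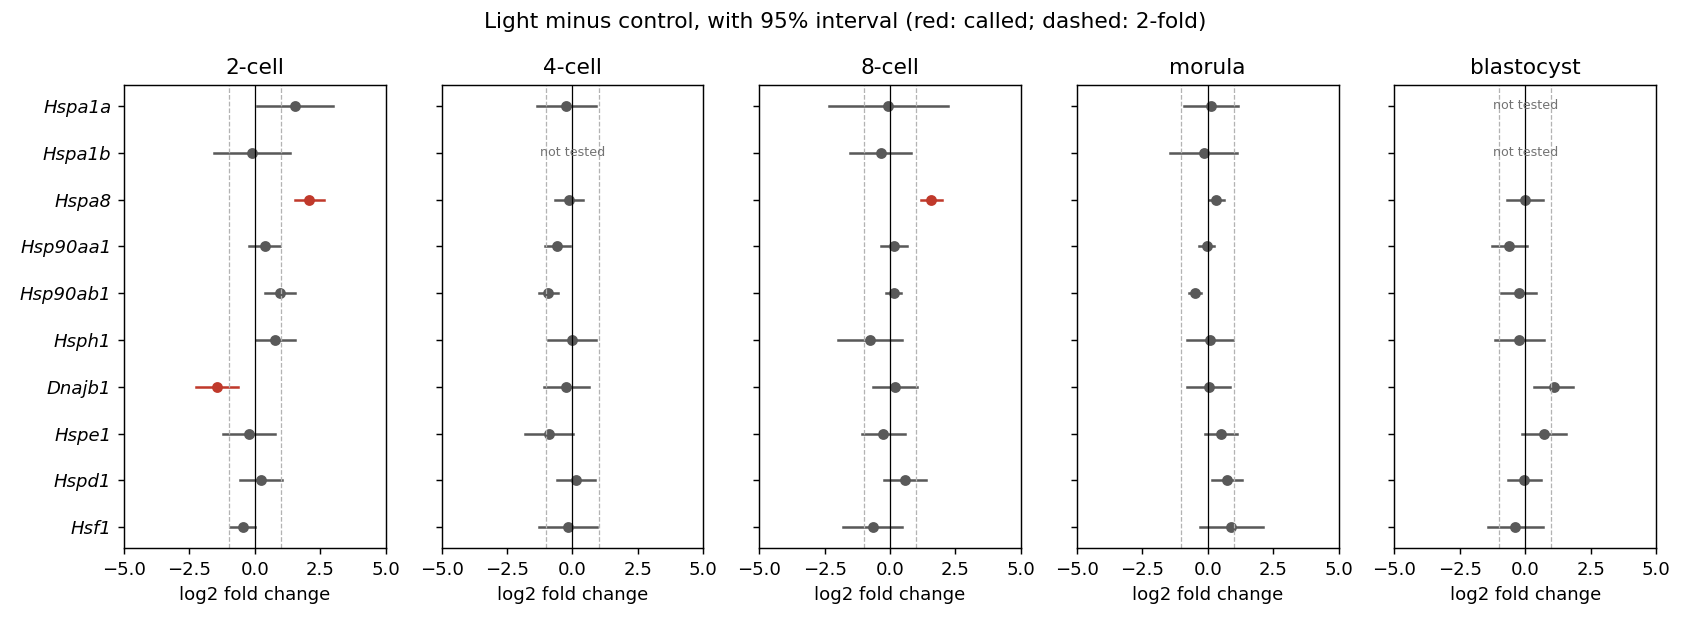
Log2 fold change of light minus control for each gene at each stage, on log2(CPM + 1); points are estimates of limma, lines 95% intervals, red marks called genes and dashed lines 2-fold. In the 2-cell panel the red points are Hspa8 at 2.08 and Dnajb1 at -1.45, and in the 8-cell panel Hspa8 at 1.58.

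At the 4-cell stage none of 9 genes tested was called (limma, with 1.69% of 15014 genes called higher and 0.466% lower), and Hspa1b had no read in any of the 14 libraries. The median log2 fold change was -0.23 over these genes and 0.17 over all. Hsp90ab1 passed the adjusted p without reaching 2-fold. Control libraries were at 3638, 5372 and 8469 CPM (lowest, median, highest) and light libraries at 2291, 2951 and 3468 CPM. Every control library was above every light library, as were the groups of 0.819% of all genes tested, in either direction. The mean was 5688 ± 1636 CPM in control (n = 6) and 2934 ± 378 in light (n = 8), a log2 fold change of -0.92 ± 0.17 (limma, adjusted p = 0.0087). At an unadjusted p under 0.05, 2804 genes passed, and edgeR and DESeq2 called none of the 10 genes.

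Hspa8 was at 3808 ± 1782 CPM in control and 3057 ± 527 in light, with a log2 fold change of -0.14 (interval -0.67 to 0.39). Hsp90aa1 was at 1209 ± 399 and 794 ± 229 CPM (log2 fold change -0.58, limma adjusted p = 0.18). Hspe1 was at 76.6 ± 32.7 and 35.9 ± 11.4 CPM, and control library 3 alone stood low, at 14.0 CPM against 71.3 to 105 in the other control libraries. That library lay nearer to the light libraries over all genes, as did control libraries 4 and 6. Without library 3, Hspe1 and Hsp90ab1 were both called lower in light, at log2 fold changes of -1.34 and -1.04 (limma, adjusted p = 0.030 and 0.00029). Over all genes 339 were then called lower, against 70 with that library. Primitive endoderm markers (4 of 4 in the table) summed to 89.2 to 371 CPM in control and 198 to 567 in light. By mean, Gata4 was higher in light (103 and 332 CPM) and Gata6 lower (79.2 and 43.8 CPM). Pdgfra was at 0 and 3.95 CPM and Sox17 at 0 in both groups. The part of these markers in the values of this stage was not tested. Hspa1a, Hsph1, Dnajb1, Hspd1 and Hsf1 had log2 fold changes between -0.24 and 0.14.

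At the 8-cell stage 1 of 10 genes was called, Hspa8, which rose in light. Of all 14728 genes, 4.83% were called higher and 3.66% lower, and the groups of 5.61% did not overlap. The 4 control libraries were at 876, 1389, 1775 and 2335 CPM. The 8 light libraries were at 3198, 4511 and 6455 CPM (lowest, median, highest), all above control. The mean was 2.88-fold higher, 4591 ± 1043 against 1594 ± 616 CPM, with a log2 fold change of 1.58 ± 0.20 (limma, adjusted p = 3.7e-05). With 1 library left out it ran from 1.32, without control library 4, to 1.80, without control library 1. Median log2 fold changes were 0.041 over the 10 genes and 0.080 over all genes. The other genes had log2 fold changes from -0.77 (Hsph1) to 0.58 (Hspd1), with adjusted p of 0.37 or more. Hsp90ab1 was at 3323 ± 656 and 3660 ± 637 CPM, an interval of -0.15 to 0.43 on the log2 scale.

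Control and light 8-cell libraries also differed in markers of other stages. Transient 2-cell markers summed to 58.0 to 362 CPM in control and 0 to 47.9 CPM in light, and among them Zfp352 was at 27.7 to 207 CPM in control and 0 to 3.27 CPM in light. Means of Usp17lc (39.5 and 0.363 CPM), Tcstv3 (25.2 and 4.44 CPM) and Zscan4c (4.46 and 0.0559 CPM) were lower in light as well. Each of these had a lowest control value of 0. Zscan4d was higher in light (0.371 and 1.61 CPM). Inner cell mass markers summed to 122 to 194 CPM in control and 137 to 1207 in light. By mean, Tdgf1 (87.7 and 580 CPM) and Pou5f1 (53.6 and 200 CPM) were higher in light. Nanog was lower (16.5 and 10.8 CPM), and Sox2 was at 0 and 0.0779 CPM. The part of these markers in the Hspa8 result was not tested.

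Morulae gave no call among 10 genes tested (limma, 0.847% of 16170 genes higher and 0.742% lower, and 0.513% with no overlap), and none by edgeR or DESeq2, while 2845 genes had an unadjusted p under 0.05. Hsp90ab1 was at 4501 ± 759 CPM in light (n = 6) against 6338 ± 1072 CPM in control (n = 13), with a log2 fold change of -0.49 ± 0.11 that passed the adjusted p (0.022, limma) and not the fold. Its adjusted p was 0.058 on the values as deposited and 0.071 without light library 6, the highest with 1 library left out. Light libraries ran from 3366 to 5328 CPM and control libraries from 4729 to 8424. Over all genes the median log2 fold change was 0.25, and that of the 10 genes 0.10. Hspa8 (4482 against 5804 CPM, log2 fold change 0.33) and Hspd1 (284 against 449 CPM, 0.73) had adjusted p of 0.21 and 0.16 by limma. None of the 6 light morulae was nearest to its own stage over all genes when control and light were pooled. Each was nearer to the other light morulae (median rho 0.792 to 0.813) than to any other stage.

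Blastocysts gave no call among 8 genes tested (limma, 1.03% of 14111 genes higher and 0.865% lower; 2084 genes under an unadjusted p of 0.05), nor by edgeR or DESeq2. Dnajb1 had the largest log2 fold change of the 8. The 3 control libraries were at 78.3, 86.7 and 93.3 CPM, and light libraries at 109 to 236 CPM with a median of 213, so that the groups did not overlap. Of all genes 7.21% did not, in groups of 3 and 6. The 8 genes had a median log2 fold change of -0.13 and all genes of -0.038. For Dnajb1 the log2 fold change was 1.10 ± 0.36 (limma, adjusted p = 0.12), and 0.33 on the values as deposited, where the median of all genes was -0.64. The Hspa8 interval was -0.70 to 0.68. Hspe1 (101 against 184 CPM) and Hsp90aa1 (3985 against 2713 CPM) had log2 fold changes of 0.72 and -0.60 with intervals that held 0. Hspa1a and Hspa1b had no read in any of 9 libraries, which allows up to 0.711 CPM over the control and 0.506 CPM over the light group (3 reads, counting error only). Trophectoderm markers summed to 854 to 7447 CPM in control and 8667 to 12466 in light, and inner cell mass markers to 368 to 2903 and 297 to 531 CPM. The part of these markers in the values was not tested. Y-linked genes reached 10 CPM in 0 of 3 control and 6 of 6 light libraries, so that sex and light cannot be told apart here.

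Whether the difference between light and control changed with stage was asked in 1 model over all 67 libraries. The F test of limma passed for Hspa8 (F = 17.8, adjusted p = 3.6e-07), Hsp90ab1 (F = 14.6, adjusted p = 4.7e-06) and Dnajb1 (F = 4.05, adjusted p = 0.046), 3 of 10 genes, where 11.4% of 22861 genes passed. Hspa8 differed by 2.08, -0.14, 1.58, 0.33 and -0.011 on the log2 scale, in order of stage. Hsp90ab1 differed by 0.97, -0.92, 0.14, -0.49 and -0.26, positive at the 2-cell and negative at the 4-cell stage. Dnajb1 differed by -1.45, -0.24, 0.18, 0.044 and 1.10. The Dnajb1 result was lost with a pseudocount of 0.1 (adjusted p = 0.067) and on the values as deposited (0.20). Without control 4-cell library 3, Hsp90aa1 and Hspe1 passed too (limma, adjusted p = 0.040 and 0.024), against 0.11 and 0.16 with it. On the values as deposited Hsp90aa1 passed as well (0.035). The remaining 5 genes had adjusted p of 0.46 or more.

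**Figure D3:**
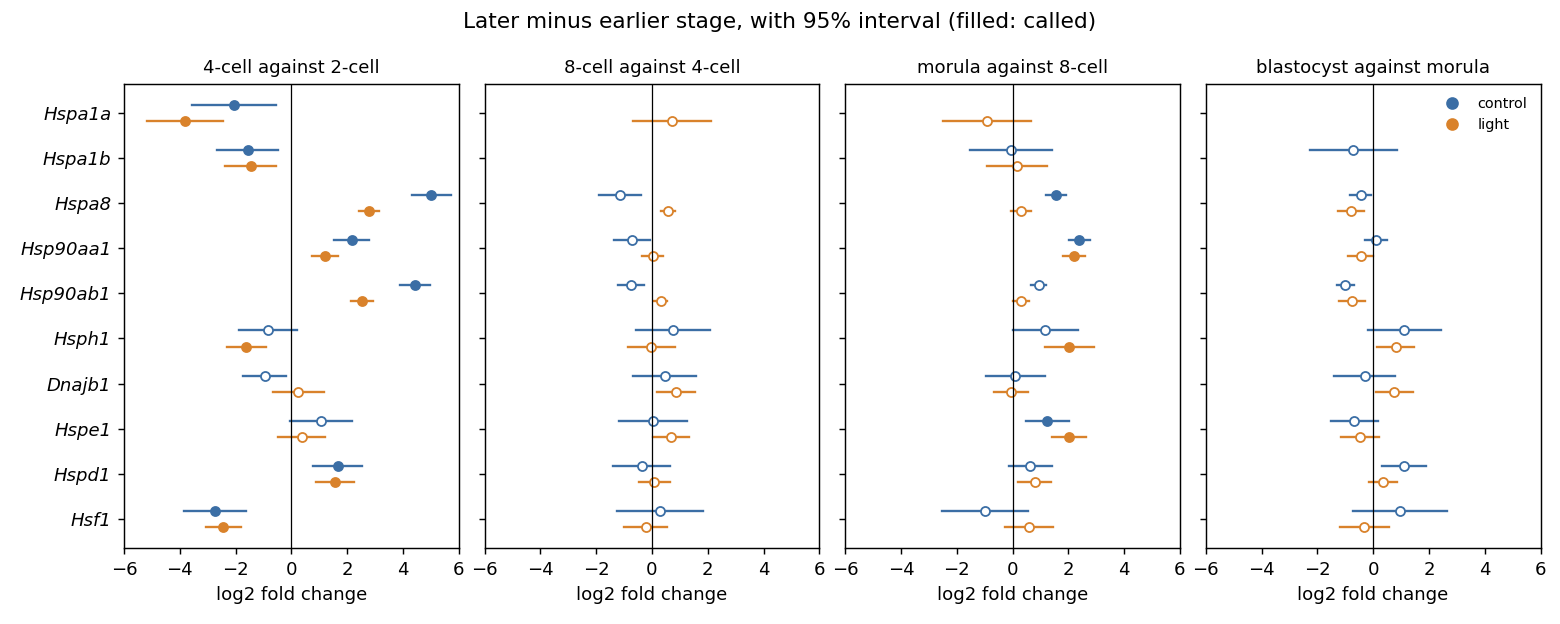
Log2 fold change of each gene from a stage to the next in control (blue) and light (orange), on log2(CPM + 1), with 95% intervals of limma; filled points are called genes, open points are not, and a missing point was not tested. From the 2-cell to the 4-cell stage Hspa8 stands at 5.02 in control and 2.79 in light, and Hsp90ab1 at 4.43 and 2.54.

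Each group was then followed from stage to stage. From 2 cells to 4 cells 7 of 10 genes were called in control, 4 higher and 3 lower, where 17.7% of 17247 genes were called higher and 30.2% lower. In light embryos 8 were called, 4 higher and 4 lower (10.9% and 24.2% of 17256 genes). The median over all genes was -0.50 in control and -0.33 in light, on the log2 scale, and that of the 10 genes 0.11 and 0.31. Hspa8 rose 36.0-fold in control, to 3808 CPM (log2 fold change 5.02 ± 0.34), and 6.77-fold in light, to 3057 CPM (2.79 ± 0.18). Hsp90ab1 rose 20.8-fold in control, from 274 to 5688 CPM, and 5.47-fold in light, from 536 to 2934 CPM. Hsp90aa1 (chr12:110690605-110702728), the inducible HSP90, rose by 2.16 and 1.21, and the mitochondrial Hspd1 by 1.67 and 1.56 on the log2 scale. The rise of Hsp90aa1 in light was under 2-fold on the values as deposited (0.87). Without control 4-cell library 3, Hspe1 (1.48) and Dnajb1 (-1.14) were called in control as well, an alternative added after seeing the data. Whether a rise differed between the groups was tested only by the F test over all stages above.

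Hsf1 fell in both groups, from 398 ± 66.9 to 95.3 ± 82.8 CPM in control and from 297 ± 99.6 to 56.1 ± 24.4 CPM in light (log2 fold changes -2.72 and -2.43, limma adjusted p = 0.00027 and 8.1e-07). Later it stayed between mean levels of 53.9 and 88.5 CPM in every group, with no step called. Hspa1a fell as well, with log2 fold changes of -2.05 in control and -3.81 in light. Its call in control was not made by edgeR (adjusted p = 0.20), which called Dnajb1 lower instead (-1.02). Hspa1b went from 31 reads over the control and 15 over the light 2-cell libraries to 0 reads, at least 8.31-fold and 6.82-fold lower (0 reads set to 3 reads over the group). Hsph1 fell in light, from 165 to 54.4 CPM (log2 fold change -1.62 ± 0.34), while in control it went from 104 to 60.6 CPM and was not called (-0.82, limma adjusted p = 0.17).

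**Figure D4:**
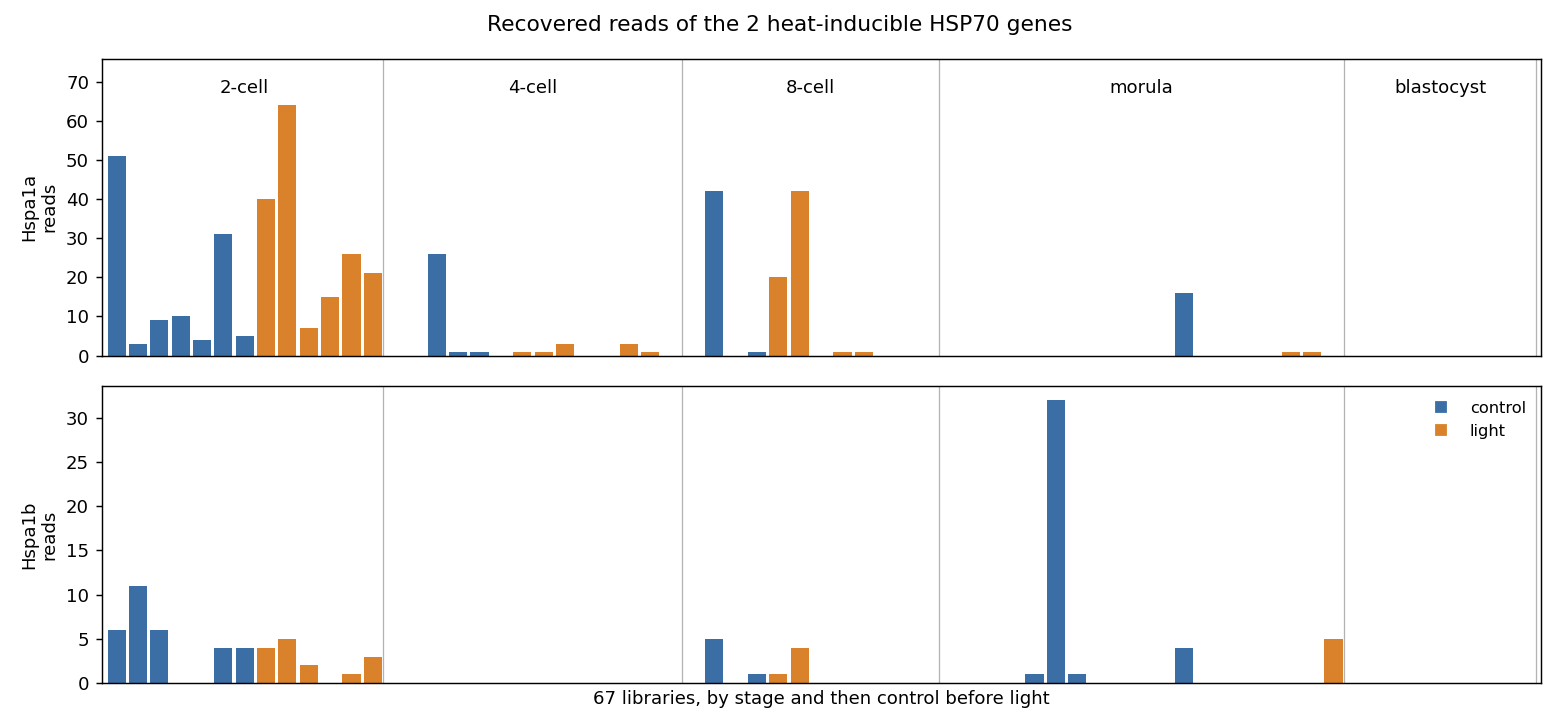
Reads of Hspa1a (top) and Hspa1b (bottom) in each of the 67 libraries, by stage, with control (blue) before light (orange). Hspa1a has reads in every 2-cell library; from the 4-cell stage on 5 libraries hold 16 to 42 reads and the others 0 to 3, and Hspa1b reaches 32 reads in 1 control morula.

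After the 2-cell stage the inducible HSP70 genes were read in few libraries. Hspa1a had 26 reads in control 4-cell library 3, 42 in control 8-cell library 2, 20 and 42 in light 8-cell libraries 5 and 6, and 16 in control morula library 23. All other libraries from the 4-cell stage on had 0 to 3 reads. Hspa1b had 32 reads in control morula library 12, where Hspa1a had 0. Both groups held such libraries, and over 67 libraries Hspa1a was read in 30 and Hspa1b in 19, while the other 8 genes were read in all 67.

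From the 4-cell to the 8-cell stage no gene of the 10 was called in either group by limma or edgeR. In control, 1.26% of 13639 genes were called higher and 0.601% lower, with 2239 genes under an unadjusted p of 0.05, and in light 0.836% and 1.56% of 15678, with 2714. The genes tested had median log2 fold changes of -0.17 in control and 0.31 in light, and all genes of -0.0097 and -0.064. In control Hspa8 went from 3808 to 1594 CPM (log2 fold change -1.15, adjusted p = 0.099) and Hsp90ab1 from 5688 to 3323 CPM (-0.75, adjusted p = 0.090). On the values as deposited these and Hsp90aa1 were called lower, at -1.88, -1.47 and -1.44, as were 693 of all 13423 genes, whose median was -0.56. Without control 4-cell library 2 Hspa8 was called (-1.45). In light Hspa8 went from 3057 to 4591 CPM, a log2 fold change of 0.57 that passed the adjusted p (0.012, limma) and not the fold.

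From the 8-cell stage to the morula 3 genes rose in each group. In control 6.23% of 15710 genes were called higher and 8.96% lower, and in light 5.20% and 5.40% of 15543. The median log2 difference was 0.93 in control and 0.45 in light over the genes tested, and -0.078 and 0.048 over all genes. Hsp90aa1 rose 5.28-fold in control, to 3765 ± 781 CPM, and 4.44-fold in light, to 3622 ± 601 CPM. Hspe1 rose by 1.25 in control and 2.02 in light on the log2 scale (limma, adjusted p = 0.024 and 6.7e-05). Hspa8 was called in control (1.56 ± 0.17) and had a log2 fold change of 0.31 in light. Hsph1 was called in light (2.03 ± 0.43), with 1.18 in control (adjusted p = 0.17). The difference between the groups was not tested for this step alone.

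From the morula to the blastocyst none of the 10 genes was called in either group by limma. In control 7.77% of 15708 genes were called higher and 5.39% lower, with 4301 under an unadjusted p of 0.05, and in light 7.94% and 5.34% of 15069, with 4223. Medians of the genes tested were -0.30 in control and -0.38 in light on the log2 scale, and of all genes 0.40 and 0.012. Hsp90ab1 passed the adjusted p in both, and stood at the edge of 2-fold in control, from 6338 to 3178 CPM (log2 fold change -0.99, adjusted p = 4.6e-05), and at -0.76 in light (adjusted p = 0.020). Hspa8 was at -0.79 in light (adjusted p = 0.019). Hspd1, at 1.11 in control, was called by edgeR (1.14) and Hsp90ab1 on the values as deposited (-1.12). On the values as deposited 4 genes were called lower in light, Hspa8 (-1.49), Hsp90aa1 (-1.15), Hsp90ab1 (-1.45) and Hspe1 (-1.15), as were 2164 of all 13551 genes, whose median was -0.45. Hspd1 ended at the highest mean of any stage in both groups, 597 ± 235 CPM in control and 560 ± 83.4 in light.

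Together the 10 genes held 0.114% to 0.158% of the reads outside the ribosomal rows in control 2-cell libraries and 0.151% to 0.272% in light ones. At the 4-cell stage the share was 0.755% to 1.49% in control and 0.567% to 0.875% in light, and up to 1.82% in control morulae. Per kb of merged exons, control 2-cell libraries held 91.2 ± 33.2 CPM per kb of Hsp90ab1 and 69.5 ± 23.9 of Hsp90aa1, within their SD of each other, and 24.6 ± 6.62 of Hspa8. In control 4-cell libraries Hsp90ab1 was at 1896 ± 545 CPM per kb, Hspa8 at 885 ± 414 and Hsp90aa1 at 307 ± 101. Hsf1 was given no place in these orders, because its merged exons span 7099 bases and its longest coding transcript 2104. These lengths also differ for Hspa8 (4301 and 2394 bases), so that its level per kb depends on the length taken. In control blastocysts Hsp90ab1 (1060 ± 196 CPM per kb) and Hsp90aa1 (1014 ± 68.7) did not differ beyond their SD.

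Likeness of pattern was described by Pearson's r of log2(CPM + 1) over all 67 libraries, which share stage, depth and scaling, and without a p. The genes most like Hspa8 were its pseudogene Gm15459 (r = 0.96), Rpl3 (0.95) and Rpl5 (0.95), both ribosomal proteins. Most like Hspd1 were Ddah1 (0.81), Ckmt1 (0.81) and Mthfd1 (0.80), and most like Hsf1 were Ube2d2a (0.80), Per3 (0.76) and Gm1965 (0.76). Hspa1a was most like Gm20481 (0.88), which lies on it, Gm6507 (0.75) and Tekt1 (0.75). Within the 10 genes, Hspa8 and Hsp90ab1 had an r of 0.94, and Hsf1 and Hsp90ab1 of -0.74.

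The wider chaperone system was taken as 128 further genes in 9 lists, of which 125 were in the table. At the 2-cell stage 31 of 116 tested were called higher in light and 4 lower (30.2% in all, where 2164 of all 18090 genes were called), with a median log2 fold change of 0.68 where all genes had 0.049. At the 8-cell stage it was 16 higher and 2 lower of 110 (16.4%, where 1250 of 14728 were called), with a median of 0.47 against 0.080. At the 4-cell stage 2 of 109 genes were called (1.83%, where 323 of all 15014 were), in morulae 1 of 112 (0.893%, where 257 of 16170 were) and in blastocysts 2 of 112 (1.79%, where 268 of 14111 were). Between stages, the control step from 2 to 4 cells had 43 of 115 called higher and 21 lower. That was 55.7%, where 8261 of 17247 genes were called, with a median of 0.75 against -0.50 over all genes.

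**Figure D5:**
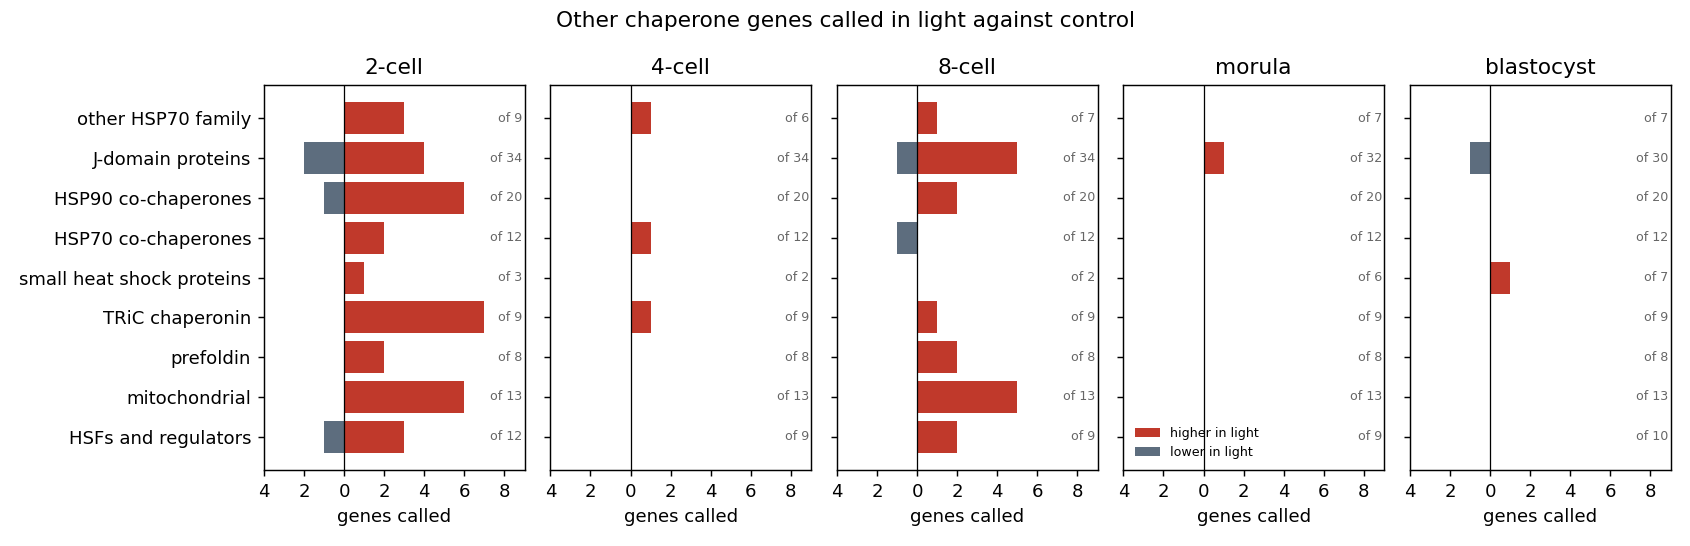
Number of genes of each of 9 chaperone lists called higher (red, right) or lower (grey, left) in light than in control at each stage; the small number at the right is the genes tested. At the 2-cell stage 7 of 9 TRiC and 6 of 13 mitochondrial genes are higher, and at the 8-cell stage 5 of 13 mitochondrial genes. Over all genes tested, 6.94% and 4.83% were called higher at these stages.

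The cytosolic chaperonin TRiC, which folds actin and tubulin, had 7 of 9 subunits higher in light at the 2-cell stage (median log2 fold change 1.80). Of all genes tested at that stage, 6.94% were called higher and 5.02% lower, with a median of 0.049. Cct8 went from 71.7 ± 33.3 to 281 ± 81.9 CPM and Cct4 from 24.3 to 175 CPM. Mitochondrial chaperones and proteases had 6 of 13 higher. Clpx (68.6 to 267 CPM) came first by p, before Hspa9, the mitochondrial HSP70 (114 ± 24.1 to 327 ± 93.4 CPM), while Hspd1 and Hspe1 were not called. Of 20 co-chaperones of HSP90, 6 were higher and 1 lower. Stip1, the adaptor that joins HSP70 to HSP90, had the smallest p of these (139 ± 48.5 to 615 ± 269 CPM, log2 fold change 2.12, limma adjusted p = 3.3e-05), before Fkbp4 (114 to 327 CPM). In control, the step from 2 to 4 cells also had 8 of 9 TRiC subunits and 8 of 13 mitochondrial genes higher (medians 2.88 and 1.79). Of all genes, 17.7% were called higher in that step and 30.2% lower. The part of this stage step in the light results was not tested.

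Other HSP70 family genes had 3 of 9 higher, with Hspa4 (53.5 to 155 CPM) beside Hspa9, and HSP70 co-chaperones 2 of 12, Hspa4 again and Bag1 (58.1 to 204 CPM). J-domain genes had 4 higher and 2 lower of 34. Dnaja1 rose from 84.9 to 259 CPM and Dnajb6 from 197 to 418 CPM. Small heat shock proteins had 1 of 3 tested higher, Hspb1 (17.5 to 113 CPM), and prefoldin, which hands chains to TRiC, 2 of 8, Pfdn6 and Pdrg1. Among heat shock factors and their regulators 3 of 12 were higher and 1 lower, with Vcp (90.8 to 269 CPM), an unfolding ATPase, and the ubiquitin gene Ubb (399 to 812 CPM) first by p. Median log2 fold changes were -0.36 for small heat shock proteins and -0.0076 for prefoldin, against 0.049 over all genes. They were 0.50 for other HSP70 family genes, 0.46 for HSP70 co-chaperones, 0.49 for J-domain genes and 0.82 for factors and regulators.

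At the 8-cell stage the mitochondrial list had 5 of 13 higher (median log2 fold change 1.62), Hspa9 (149.8 ± 42.2 to 507 ± 59.8 CPM) and Clpx (137 to 462 CPM) again first. Of all genes tested there, 4.83% were called higher and 3.66% lower, with a median of 0.080. J-domain genes had 5 of 34 higher and 1 lower, with Dnajb6 (580.1 to 1387 CPM) and Dnaja1 (528 to 1138 CPM) first, and of the HSP90 co-chaperones Stip1 was higher (959 to 2049 CPM). Prefoldin had 2 of 8, Pdrg1 and Pfdn1, and TRiC 1 of 9, Cct6a (254 to 529 CPM). The heat shock factor Hsf2 (10.7 ± 8.08 to 77.0 ± 46.2 CPM) and Hikeshi (20.3 to 75.2 CPM), which carries HSP70 into the nucleus, were the 2 of 9 among factors and regulators. Bag3, a heat-inducible partner of HSP70, fell from 275 ± 48.8 to 80.6 ± 30.2 CPM, and none of the 12 HSP70 co-chaperones tested was called higher.

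At the 4-cell stage Hspa4 (185 to 526 CPM) and Cct5 (249.9 to 516 CPM) were higher in light. In morulae it was Dnajb5 (3.02 to 24.4 CPM), and in blastocysts Cryab, a small heat shock protein, was higher (23.3 to 109.5 CPM) and Dnajb4 lower (11.8 to 0.263 CPM). The part of the marker sums given at the 2-cell, 4-cell, 8-cell and blastocyst stages in these counts was not tested.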

How the data were processed

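SMART-seq2 libraries of 67 samples were grouped by the labels' condition and stage. The authors deposited a table of signal values for 26414 genes. The labels' processing notes name HISAT2, HTSeq 0.9.1 and mm9 without their roles. Each deposited signal value was a read number over a factor of its library: 99.97% or more came out whole within 0.01, the 10 genes in full, and none was divided by length, although the study's methods describe RPKM. An earlier analysis of these data found these factors to be set by 2 ribosomal RNA locus rows, which was not tested again here. Recovered reads were therefore scaled to CPM without those rows.

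Groups were compared with limma 3.58.1 (R 4.3.3, eBayes, trend) on log2(CPM + 1), which understates changes of low genes, for genes above 1 CPM in at least 3 libraries compared. Alternatives were the values as deposited, median of ratios, edgeR 4.0.16, DESeq2 1.42.0 (light comparisons), a pseudocount of 0.1, no filter, libraries left out and a replicate block. Libraries sharing a number did not deviate together (r between -0.067 and 0.062), and no pair within a group agreed within counting noise. Coordinates are those of GENCODE M21 (GRCm38), not of the authors' build. Intervals are those of limma and rest on the spread between libraries, while floors of reads cover counting error only. The genes, lists and tests were chosen with earlier results of these data known. All 10 genes were named in each comparison, from each list the 2 called genes with the smallest p, and for each of 4 genes the 3 most alike. A result that this rule would name is not reported here.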

Additional observations from a re-analysis of the deposited data

Results flagged for a closer look

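Hspa8, Hsp90ab1 and Dnajb1 were picked out because the difference between light and control depended on stage, by the F test of limma over all 67 libraries (adjusted p = 3.635e-07, 4.668e-06 and 0.04649). Dnajb1 did not pass on the values as deposited or with a pseudocount of 0.1.

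In 5 of 76 pairs of gene and group, 1 library stood far from the others, where chance gives about 1 in 20, or 3.8. That rate is for normally spread values, and Hspa1a and Hspa1b had mostly few or no reads. Control morulae (n = 13) and control blastocysts (n = 3) were not screened. Hspa1a was at 11.78 CPM (26 reads) in control 4-cell library 3, and its other control libraries held at most 0.841 CPM. In control 8-cell library 2 it was at 31.19 CPM (42 reads), against at most 0.674 CPM. Hspa1b was at 8.847 CPM in light morula library 12, which is 5 reads, and had no read in the other light morulae. Hsph1 was low in light 8-cell library 11, at 7.662 CPM (5 reads), where the others held 43.6 to 120 CPM. Hspe1 was at 14.04 CPM in control 4-cell library 3, below the 71.3 to 105 CPM of the others.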

How the results depend on the processing

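Hspa8 kept its call at the 2-cell and 8-cell stages under every alternative run. With the replicate block, which pairs libraries only by number, 1 of the 10 genes was called at the 2-cell stage (Dnajb1 lost, -1.49 with adjusted p = 0.17, against -1.45), 0 from the 2-cell to the 4-cell stage in light, and 0 in control and 1 in light from the 8-cell stage to the morula. Over all genes the block called 0 of 17256 in the light step to the 4-cell stage, and 0 of 15710 in control and 84 of 15543 in light in the step to the morula. Values as deposited gave 3 calls from the 4-cell to the 8-cell stage in control, and 1 in control and 4 in light from morula to blastocyst, and edgeR and median of ratios gave 1 each in the control step to blastocyst. With 1 library left out, calls ran from 0 to 2 at the 4-cell stage, from 0 to 1 in the control steps to the 8-cell stage and to the blastocyst, and reached 5 for the F test over stages. The cause of these changes was not tested.

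Signs of log2 fold changes between light and control turned only where no call was made. At the 2-cell stage Hspa1b was at 0.055 with a pseudocount of 0.1. With the replicate block, Hspa1a, Hsph1 and Hsf1 were at 0.63, 0.37 and 0.065 at the 4-cell stage, and Hsp90aa1, Hsph1 and Dnajb1 at 0.064, -0.29 and -0.29 in morulae. DESeq2 gave -0.033 for Hspd1 at the 4-cell stage, -0.074 for Dnajb1 at the 8-cell stage, and 1.57, -0.15 and -0.18 for Hspa1b, Hsph1 and Dnajb1 in morulae. There edgeR gave -1.42, -0.16 and -0.17 for Hspa1a, Hsph1 and Dnajb1. Values as deposited gave -0.12 and -0.15 for Hsph1 and Dnajb1 in morulae and -0.040 for Hspe1 in blastocysts, where the median of all genes moved from 0.25 to 0.10 and from -0.038 to -0.64. With 1 library left out, ranges that crossed 0 were, at the 2-cell stage, -0.49 to 0.19 (Hspa1b). At the 4-cell stage they were -0.44 to 0.013 (Hspa8), -0.32 to 0.21 (Hsph1), -0.44 to 0.024 (Dnajb1), -0.10 to 0.37 (Hspd1) and -0.62 to 0.16 (Hsf1). At the 8-cell stage they were -0.54 to 0.13 (Hspa1a), -0.011 to 0.29 (Hsp90aa1) and -0.25 to 0.53 (Dnajb1). In morulae they were -0.71 to 0.17 (Hspa1b), -0.12 to 0.034 (Hsp90aa1), -0.15 to 0.31 (Hsph1) and -0.090 to 0.16 (Dnajb1), and in blastocysts -0.32 to 0.15 (Hspa8), -0.98 to 0.26 (Hsph1) and -0.32 to 0.26 (Hspd1).

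Over all genes, called numbers were 2164, 323, 1250, 257 and 268 in order of stage, and over the alternatives with all libraries 1120 to 2734, 0 to 743, 897 to 1451, 0 to 409 and 91 to 716. Depth limits Hspa1a and Hspa1b most, with 448 and 100 reads in all libraries.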
